A study of Arabidopsis thaliana with 51 samples.

Results

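The nuclear genes of the photosynthesis apparatus are the genes that a plant cell transcribes in its nucleus and whose proteins are carried into the chloroplast to build the thylakoid complexes. They were taken by symbol from the array annotation: a nuclear gene was included when a probe set was paired with it alone and its symbol began with LHC, PSA, PSB, NDH, PET, FNR, RBCS, CAB, PGR, PPL or PQL, or was CaS. The rule goes by symbol and adds CaS by name. It was set with earlier results of these data known, so the counts of changed genes cannot be taken as independent of them. The annotation used here held 13 such genes among 13264 nuclear genes paired with a probe set, and it does not name every photosynthesis gene of Arabidopsis. All 13 had 1 probe set each and passed the filter of a log2 value of at least 5 on at least 3 arrays.

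The set fell into 5 roles. LHCB4.1 (AT5G01530), LHCB4.2 (AT3G08940) and LHCB4.3 (AT2G40100) encode forms of CP29, a minor antenna protein that sits between the light-harvesting trimers and the core of photosystem II. PSBW (AT2G30570) and PSBY (AT1G67740) encode small membrane subunits of photosystem II, and PSB27 (AT1G03600) encodes a lumenal protein of its assembly and repair. PSAE-1 (AT4G28750) and PSAN (AT5G64040) encode photosystem I subunits on the stromal and the lumenal side. NdhL (AT1G70760), NdhN (AT5G58260) and NdhS (AT4G23890) encode nuclear subunits of the chloroplast NADH dehydrogenase-like complex, which returns electrons to the plastoquinone pool, and PGRL1B (AT4G11960) belongs to the other route of cyclic electron flow. CaS (AT5G23060) encodes a thylakoid protein that takes part in calcium signals of the chloroplast.

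In a leaf the light reactions split water at photosystem II and pass electrons through plastoquinone and photosystem I to make NADPH and ATP. Most subunits are encoded in the nucleus and a smaller number in the plastid, so that each complex needs transcripts from both genomes. Plant cells that detect a microbial peptide or a damage-associated peptide of their own through receptor kinases are known to lower many photosynthesis transcripts while defence genes rise.

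The study measured total RNA of whole Arabidopsis thaliana seedlings on 51 ATH1 arrays, in 17 groups of 3 biological replicates. Seedlings grew for 5 to 6 days on agar and 5 to 6 more days in liquid medium, both with 25 mM sucrose, in a day of 12 h light and a night of 12 h, and the treated ones received 1 µM elf18 or Pep2. The peptide elf18 is a fragment of the bacterial elongation factor EF-Tu and is detected by the receptor kinase EFR. Pep2 is a plant peptide detected by the receptor kinases PEPR1 and PEPR2. Groups at 2 h and 10 h of elf18 existed for ein2-1 and wild type (WT), and at 10 h only for efr-1. Groups at 2 h and 10 h of Pep2 existed for pepr1-1 pepr2-3, bak1-3 and WT, and at 2 h only for ein2-1. Each of the 5 genotypes also had an untreated group at 0 h. EIN2 is a central component of ethylene signalling, and BAK1 is a co-receptor kinase of several immune receptors. Every mutant was represented by 1 allele or 1 allele combination. Only 0 h seedlings were left untreated, so a response, meaning a treated group minus the 0 h group of the same genotype, contains the elapsed time as well as the peptide.

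Values are the authors' log2 expression values, and a change is a difference between group means on that scale. A change was called when limma's adjusted p-value over all 14568 probe sets was under 0.05 and the difference was at least 2-fold (1 on the log2 scale). Array medians lay between 6.04 and 6.15, and the lowest correlation between replicates of a group was 0.977. EFR itself, the check of the efr-1 line, averaged 2.17 ± 0.01 in efr seedlings and 6.94 ± 0.19 in WT seedlings at 10 h of elf18 (SD, n = 3 each). Before treatment EFR averaged 2.20 ± 0.07 in efr seedlings and 3.22 ± 0.32 in WT seedlings.

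Untreated seedlings held all 13 transcripts. In WT at 0 h the 3 markers of the set averaged 14.14 ± 0.09 for LHCB4.2, 12.74 ± 0.07 for CaS and 9.58 ± 0.17 for NdhL. Values of different probe sets are not comparable as transcript amounts, and 7 of the 13 genes averaged 12 or more over all arrays on a scale that ended at 16. In the 4 comparisons of an untreated mutant with untreated WT no gene of the set was called. Among all probe sets the calls in untreated ein2 were 2.24% lower and 2.29% higher, against 0.0549% lower and 0.0275% higher in untreated efr, 0.0343% and 0.0481% in untreated pepr1 pepr2, and 0.0206% and 0.0481% in untreated bak1. At an unadjusted p-value under 0.05 the set had 7 genes in untreated ein2, all of them lower than in WT, 0 in efr, 1 in pepr1 pepr2 and 1 in bak1. Here and below, genes of the set were counted at that threshold without a count over all probe sets. Such counts therefore cannot show whether the set differs from other probe sets.

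After 10 h of elf18 all 13 nuclear photosynthesis genes had negative changes in WT seedlings: 8 were called lower and none higher, with a median change of -1.07 (range -4.56 to -0.15). Over all probe sets tested the median change was -0.05, and 13.5% were called lower and 13.4% higher. Without the 2-fold minimum 12 of the 13 were lower and none higher, beside 35.2% of all probe sets lower and 31.0% higher. RNA of whole seedlings cannot show whether fewer green cells or less transcript per cell lies behind a lower level.

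The antenna gene LHCB4.2 had the largest change of the set. Its log2 values were 9.79, 8.98 and 9.96 in WT at 10 h of elf18, against 14.04, 14.20 and 14.17 in WT at 0 h. The groups were far apart, and the treated arrays spread more (9.58 ± 0.52) than the untreated ones (14.14 ± 0.09). The gene fell by 4.56 (SE 0.223, limma adjusted p = 6e-20), which is 23.6-fold. LHCB4.1 changed by -0.79 (adjusted p = 4e-09), without reaching 2-fold, and LHCB4.3 by -0.15 (adjusted p = 0.43).

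CaS had values of 9.08, 8.69 and 8.96 in WT at 10 h of elf18, against 12.68, 12.82 and 12.71 at 0 h. It fell by 3.83 (SE 0.215, limma adjusted p = 3.2e-18), or 14.2-fold, and the 2 groups did not overlap. Of the NADH dehydrogenase-like complex all 3 subunits fell. NdhL stood at 6.68, 6.49 and 7.02 in WT at 10 h of elf18, against 9.67, 9.69 and 9.38 at 0 h, a change of -2.85 (SE 0.156, adjusted p = 1.8e-18). NdhN stood at 6.30, 6.10 and 6.24, against 8.11, 8.04 and 7.66 at 0 h, and fell by 1.72 (SE 0.216, adjusted p = 7.1e-09). In both genes every treated array lay below every untreated one. NdhS fell by 1.07 (adjusted p = 2.2e-10), and PGRL1B changed by -0.59 (adjusted p = 3.1e-05), under 2-fold.

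Among the photosystem genes PSB27 fell by 1.56 (SE 0.124, limma adjusted p = 5.8e-14), PSAN by 1.48 (SE 0.169, adjusted p = 8.1e-10) and PSBY by 1.03 (SE 0.118, adjusted p = 9.1e-10). PSB27 averaged 11.73 ± 0.21 in treated and 13.29 ± 0.04 in untreated WT, and PSAN 12.40 ± 0.26 in treated and 13.89 ± 0.12 in untreated WT (SD, n = 3 each). PSBY lay near the fold minimum: without the WT elf18 10 h array of replicate 2 its change was -0.93. PSAE-1 changed by -0.75 (adjusted p = 7.2e-08) and PSBW by -0.70 (adjusted p = 5.2e-07), both under 2-fold. By role, 1 of 3 CP29 genes, 2 of 3 photosystem II genes, 1 of 2 photosystem I genes, 3 of the 4 genes of cyclic electron flow and CaS were called.

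**Figure D1:**
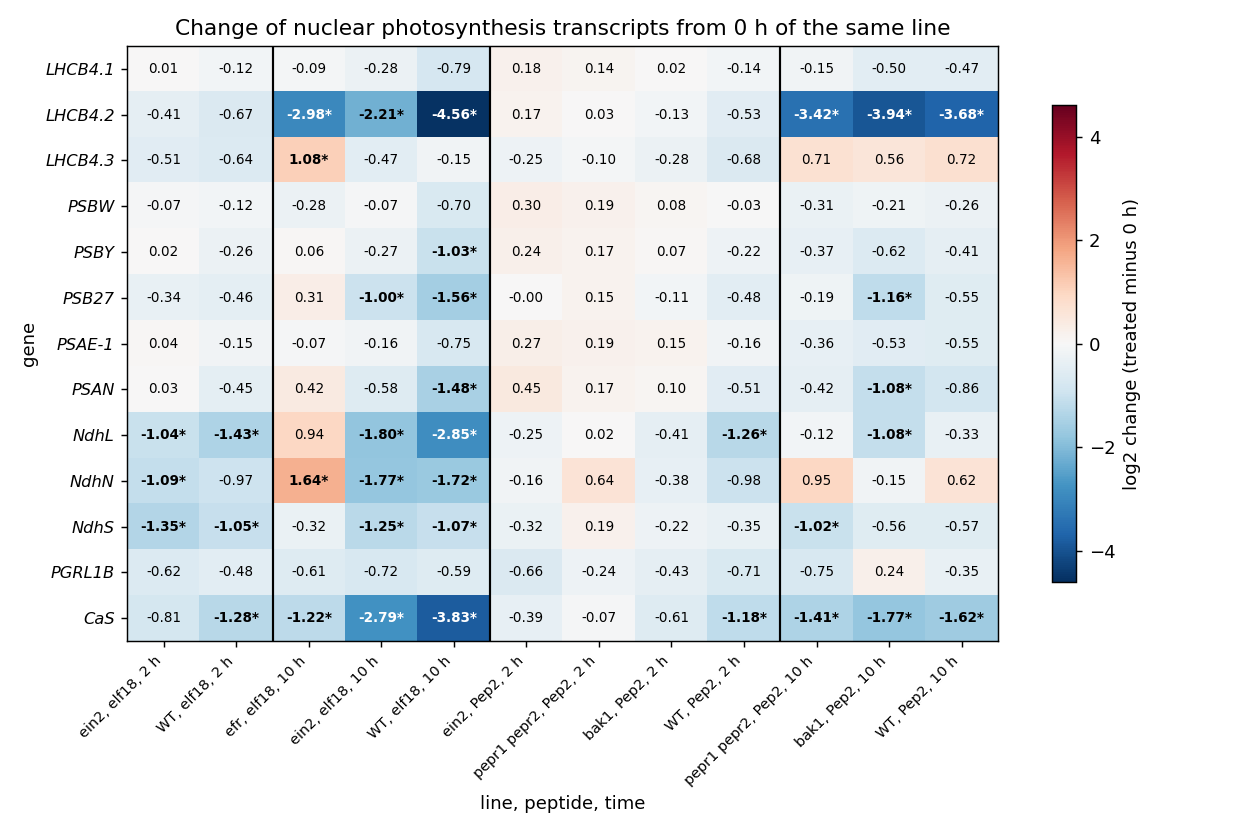
Log2 change of each of the 13 genes (rows, ordered by role) in each response of a treated group against 0 h of the same line (columns); colour and number give the change, and bold with an asterisk marks a called change. In WT at 10 h of elf18 all changes are negative, from -4.56 for LHCB4.2 to -0.15 for LHCB4.3, whereas efr at 10 h has changes on both sides of 0.

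At 10 h of elf18, efr seedlings, which lack the receptor of the peptide, had 2 genes called lower (LHCB4.2 and CaS) and 2 higher (NdhN and LHCB4.3), beside 7.12% of all probe sets lower and 8.09% higher. The median change of the set was -0.07 (range -2.98 to 1.64), and over all probe sets it was 0.01. By adjusted p-value alone 5 genes were lower and 5 higher, beside 23.4% and 26.2% of all probe sets.

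The difference between the efr response and the WT response was tested directly as an interaction. It was called higher in efr for 8 of the 13 genes and lower for none, beside 14.7% of all probe sets called higher and 12.6% lower. The median difference was 1.24 (range -0.01 to 3.78), and over all probe sets 0.05. With no minimum fold required 12 differences were higher in efr and none lower, beside 29.1% and 25.1% of all probe sets. The 8 genes were NdhL, NdhN, CaS, PSAN, PSB27, LHCB4.2, LHCB4.3 and PSBY. The call of PSBY (1.09, adjusted p = 8.5e-07) was lost at a difference of 0.98 without the WT elf18 10 h array of replicate 2, and at 0.99 without the efr 0 h array of replicate 2. Of the genes that were not called, PGRL1B had the smallest difference (-0.01, adjusted p = 0.96), with similar changes of -0.61 in efr and -0.59 in WT.

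NdhL and NdhN turned their sign between the genotypes. NdhL had 10.49, 10.29 and 10.36 in efr at 10 h of elf18, against 9.57, 9.33 and 9.42 in efr at 0 h, a change of 0.94 (adjusted p = 4.1e-06) just under 2-fold. The interaction of NdhL was 3.78 (SE 0.221, limma adjusted p = 9.1e-17), as WT had fallen by 2.85. NdhN had 9.74, 9.32 and 9.55 in efr at 10 h, against 8.41, 7.74 and 7.54 in efr at 0 h, and rose by 1.64 (SE 0.216, adjusted p = 5e-08). Its interaction was 3.37 (SE 0.306, adjusted p = 8.7e-12). For both genes the treated efr arrays were the higher ones of their genotype, and the treated WT arrays the lower ones of theirs. The third subunit, NdhS, changed by -0.32 in efr and -1.07 in WT, a difference of 0.75 (adjusted p = 0.00018) under 2-fold.

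CaS and LHCB4.2 still fell in efr, by less than in WT. CaS had 11.49, 11.42 and 11.54 in efr at 10 h of elf18, against 13.00, 12.49 and 12.63 at 0 h, a change of -1.22 (adjusted p = 9.8e-06). The interaction of CaS was 2.61 (SE 0.304, limma adjusted p = 3.1e-09). LHCB4.2 had 11.28, 11.00 and 11.33 in efr at 10 h, against 14.33, 14.10 and 14.13 at 0 h, a change of -2.98 (adjusted p = 4.3e-14). Its interaction was 1.58 (SE 0.316, adjusted p = 5.8e-05). A large fall of LHCB4.2 over 10 h was thus measured in seedlings that lack the receptor of the peptide given.

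PSB27 averaged 13.50 ± 0.12 in efr at 10 h and 13.19 ± 0.21 in efr at 0 h, and its interaction was 1.88 (limma adjusted p = 1.6e-11). PSAN averaged 14.07 ± 0.15 in efr at 10 h and 13.65 ± 0.33 in efr at 0 h (SD, n = 3 each), with an interaction of 1.90 (adjusted p = 1.6e-08). Neither gene was called in efr by itself, with changes of 0.31 and 0.42.

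**Figure D2:**
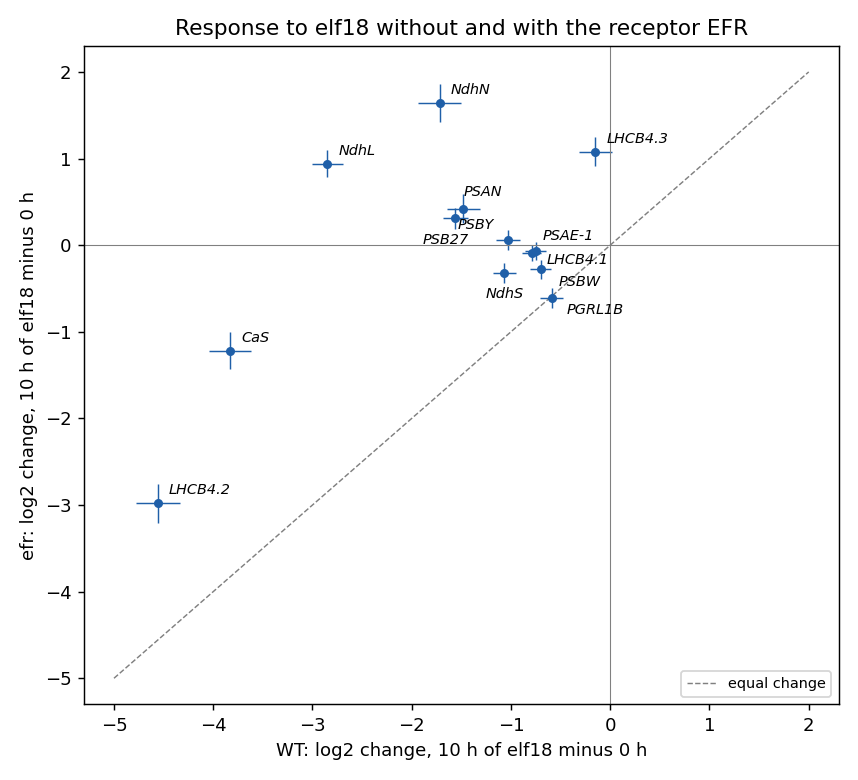
Log2 change from 0 h to 10 h of elf18 in efr (vertical axis) and in WT (horizontal axis) for the 13 genes, each point a gene with the standard errors of both changes; the dashed line marks equal change. PGRL1B lies on the line, and NdhL and NdhN lie farthest above it, with interactions of 3.78 and 3.37.

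The 3 CP29 genes each had a pattern of their own. LHCB4.1 stayed between 13.37 and 13.71 in WT at 10 h of elf18, against 14.26 to 14.46 at 0 h, and the difference of its means was far smaller than that of LHCB4.2. LHCB4.3, which encodes a shorter form of CP29, had 10.44, 10.23 and 10.50 in WT at 10 h of elf18, against 10.51, 10.62 and 10.50 at 0 h. The nearest arrays of both groups were equal after rounding, and the unrounded values did not overlap. In efr LHCB4.3 had 11.99, 11.81 and 11.60 at 10 h of elf18, against 10.87, 10.85 and 10.44 at 0 h. It rose by 1.08 (adjusted p = 1.3e-06), a call lost at 0.94 without the efr 0 h array of replicate 3 and at 0.99 without the efr elf18 10 h array of replicate 1. The interaction of LHCB4.3 was 1.24 (SE 0.238, limma adjusted p = 3.5e-05). Opposite signs of LHCB4.2 and LHCB4.3 also appeared at 10 h of Pep2, where the changes were -3.42 and 0.71 in pepr1 pepr2, -3.94 and 0.56 in bak1, and -3.68 and 0.72 in WT. None of these LHCB4.3 changes was called. In ein2 both genes were lower at 10 h of elf18, where LHCB4.3 averaged 9.89, against 10.36 at 0 h. How far the probes of 1 CP29 gene also bind transcripts of the others was not tested.

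**Figure D3:**
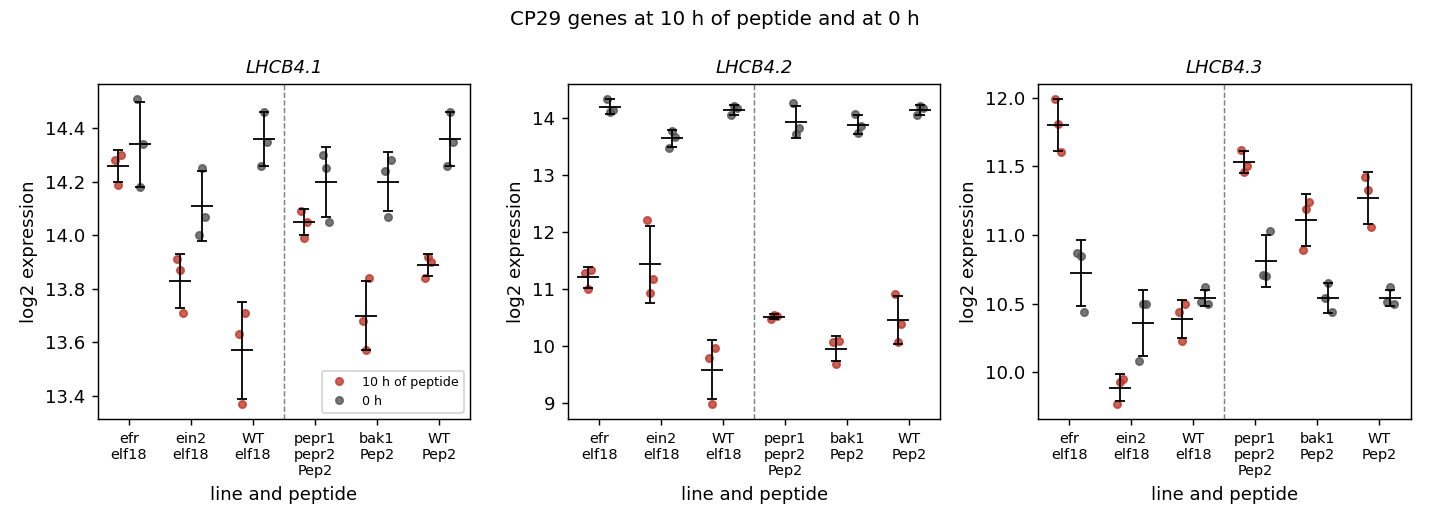
Log2 expression of the CP29 genes LHCB4.1, LHCB4.2 and LHCB4.3, each panel with its own axis, at 10 h of peptide (red) and at 0 h (grey) for each line; points are arrays, and bars give the mean and SD of 3 arrays, with the WT 0 h arrays drawn under both peptides. LHCB4.2 lies between 8.98 and 12.20 at 10 h and at 13.47 or more at 0 h in every line, whereas LHCB4.3 is higher at 10 h than at 0 h in efr with elf18 and in the 3 lines given Pep2.

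At 2 h of elf18 all 13 changes in WT were negative, with a median of -0.48 (range -1.43 to -0.12), and 3 genes were called lower and none higher. Among all probe sets 6.34% were called lower and 8.16% higher, with a median of -0.04. Without the 2-fold minimum 9 genes were lower and none higher, beside 26.0% and 22.7% of all probe sets. The called genes were NdhL, at 8.22, 7.73 and 8.48 against 9.67, 9.69 and 9.38 at 0 h (change of -1.43, limma adjusted p = 7.5e-10), CaS, which fell by 1.28 (adjusted p = 4.9e-06), and NdhS, which fell by 1.05. The call of NdhS was lost at -0.92 without the WT elf18 2 h array of replicate 2. NdhN, at -0.97, missed the fold minimum and passed it without any of 3 single arrays (WT 0 h replicate 3, WT elf18 2 h replicates 1 and 3), with changes down to -1.19.

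LHCB4.2, the gene with the largest change at 10 h, was not called at 2 h. It had 13.72, 13.07 and 13.62 in WT at 2 h of elf18, against 14.04, 14.20 and 14.17 at 0 h, a change of -0.67 (adjusted p = 0.013). Between 2 h and 10 h of elf18 in WT 5 genes were called lower at the later time and none higher, beside 6.01% of all probe sets lower and 6.57% higher. LHCB4.2 fell by 3.90 (limma adjusted p = 4.8e-17), CaS by 2.55 (adjusted p = 1.9e-12), NdhL by 1.41, PSB27 by 1.10 and PSAN by 1.03 over that interval. The call of PSB27 was lost at -0.98 without the WT elf18 10 h array of replicate 2, and that of PSAN, at -0.96 to -0.87, without any of 3 single arrays (WT elf18 10 h replicates 1 and 2, WT elf18 2 h replicate 3). NdhS changed by -0.02 over the same interval (adjusted p = 0.92), and its changes against 0 h were -1.07 at 10 h and -1.05 at 2 h.

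With Pep2 at 2 h, 2 genes were called lower in WT and none higher, beside 10.0% of all probe sets lower and 11.0% higher. NdhL had 8.20, 8.14 and 8.62 in WT at 2 h of Pep2, a change of -1.26 against 0 h (adjusted p = 8.3e-09), and CaS had 11.45, 11.33 and 11.90, a change of -1.18 (adjusted p = 1.3e-05). NdhN, at -0.98, was called without the WT 0 h array of replicate 3 (-1.12) or the WT Pep2 2 h array of replicate 3 (-1.20). All 13 changes were negative, with a median of -0.51, beside -0.11 over all probe sets. By adjusted p-value alone 9 genes were lower and none higher, beside 34.1% and 24.1% of all probe sets. The comparison of elf18 with Pep2 at 2 h in WT called no gene of the set, beside 4.1% of all probe sets called lower and 3.81% higher. At an unadjusted p-value under 0.05 the set had 1 gene, NdhS, with a difference of -0.70 (limma adjusted p = 1e-05). For LHCB4.2 the difference was -0.14 with a 95% interval of -0.59 to 0.31, for CaS -0.10 (-0.54 to 0.33), and for NdhL -0.17 (-0.49 to 0.14).

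Seedlings without the Pep2 receptors showed no called change at 2 h of Pep2. None of the 13 genes was called in pepr1 pepr2, beside 2.11% of all probe sets called lower and 1.42% higher. An unadjusted p-value under 0.05 was found for 1 gene. The median change was 0.15 (range -0.24 to 0.64). The interaction with WT was called higher in pepr1 pepr2 for 3 genes and lower for none, beside 11.3% of all probe sets higher and 11.8% lower, and its median over the set was 0.56, against 0.12 over all probe sets. With no minimum fold required 10 differences were higher and none lower, beside 28.6% and 20.0% of all probe sets. NdhN had 8.55, 8.67 and 8.35 in pepr1 pepr2 at 2 h, against 8.11, 7.82 and 7.72 at 0 h, and its interaction was 1.62 (limma adjusted p = 3.7e-05). The interaction was 1.28 for NdhL (adjusted p = 8.8e-06) and 1.11 for CaS (adjusted p = 0.0028). The call of CaS was lost at 0.99 without the WT Pep2 2 h array of replicate 2, and at 0.97 without the pepr1 pepr2 0 h array of replicate 2.

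After 10 h of Pep2 in WT, LHCB4.2 and CaS were called lower and no gene higher, beside 8.85% of all probe sets lower and 8.57% higher. Without the 2-fold minimum 10 genes were lower and 2 higher, beside 26.0% and 26.9% of all probe sets. LHCB4.2 had 10.91, 10.07 and 10.39 in WT at 10 h of Pep2, a change of -3.68 against 0 h (limma adjusted p = 1.2e-16). CaS had 11.22, 11.09 and 11.06, a change of -1.62 (adjusted p = 5e-08). The other 11 genes had changes between -0.86 for PSAN and 0.72 for LHCB4.3. NdhL, with 9.08, 9.19 and 9.47, overlapped its 0 h arrays, and NdhN, with 8.42, 8.48 and 8.76, lay above its 0 h arrays (change of 0.62, under 2-fold). Between 2 h and 10 h of Pep2 in WT, NdhN rose by 1.59 and LHCB4.3 by 1.40, and LHCB4.2 fell by 3.16, beside 9.25% of all probe sets called higher and 10.4% lower. NdhL, at 0.93 over that interval, was called at 1.01 without the WT Pep2 10 h array of replicate 1 and at 1.08 without the WT Pep2 2 h array of replicate 3.

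The 10 h response to Pep2 was measured in the receptor mutant too. In pepr1 pepr2 3 genes were called lower (LHCB4.2, CaS and NdhS) and none higher, beside 7.57% of all probe sets lower and 7.21% higher. By adjusted p-value alone 8 genes were lower and 2 higher, beside 23.2% and 26.2% of all probe sets. LHCB4.2 had 10.47, 10.54 and 10.52 in pepr1 pepr2 at 10 h of Pep2, against 14.25, 13.72 and 13.82 at 0 h, a change of -3.42 (limma adjusted p = 1.1e-15). CaS had 10.92, 11.03 and 11.41 at 10 h, against 12.94, 12.25 and 12.39 at 0 h, a change of -1.41 (adjusted p = 9.1e-07). NdhS fell by 1.02, and this call was lost without any of 3 single arrays (pepr1 pepr2 0 h replicate 1, Pep2 10 h replicates 2 and 3), at -0.97 to -0.95. NdhN, at 0.95, was called higher without pepr1 pepr2 replicate 1 at 0 h (1.06) or at 10 h (1.01).

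The interaction of pepr1 pepr2 with WT at 10 h called none of the 13 genes, beside 4.78% of all probe sets lower and 3.83% higher, and 4 genes had an unadjusted p-value under 0.05. With no minimum fold required 1 difference was lower in pepr1 pepr2 (NdhS, -0.45, limma adjusted p = 0.039) and none higher, beside 12.2% and 12.7% of all probe sets. The difference for LHCB4.2 was 0.26 with a 95% interval of -0.38 to 0.90, and for CaS 0.21 (-0.40 to 0.83). Differences of up to 0.90 and 0.83 lie inside the intervals, beside WT falls of 3.68 and 1.62. For NdhL the difference was 0.21 (-0.24 to 0.65) and for NdhN 0.33 (-0.29 to 0.95).

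The bak1 seedlings had no called gene at 2 h of Pep2, beside 9.38% of all probe sets called lower and 10.6% higher, and 3 genes had an unadjusted p-value under 0.05. At 10 h of Pep2, bak1 had 5 genes called lower and none higher, beside 16.9% of all probe sets lower and 15.1% higher. Without the 2-fold minimum 9 genes were lower and 1 higher, beside 36.1% and 34.7% of all probe sets. LHCB4.2 had 10.06, 9.69 and 10.09 in bak1 at 10 h, against 14.06, 13.74 and 13.85 at 0 h, a change of -3.94 (limma adjusted p = 3.9e-18). CaS had 10.20, 10.69 and 10.75 at 10 h, against 12.59, 12.28 and 12.07 at 0 h, a change of -1.77 (adjusted p = 2.6e-09). PSB27 fell by 1.16, and NdhL and PSAN by 1.08 each. The call of NdhL was lost at -0.93 without the bak1 0 h array of replicate 1, and that of PSAN, just under 2-fold, without the bak1 Pep2 10 h array of replicate 1.

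The interaction of bak1 with WT at 10 h of Pep2 called no gene of the set, beside 8.36% of all probe sets lower and 6.68% higher, and 4 genes had an unadjusted p-value under 0.05. By adjusted p-value alone 3 differences were lower in bak1 and 1 higher, beside 19.5% and 17.5% of all probe sets. These were PSB27 (-0.61, limma adjusted p = 0.0053), NdhL (-0.75, adjusted p = 0.0069), NdhN (-0.77, adjusted p = 0.046) and PGRL1B (0.59, adjusted p = 0.0046). The interaction at 2 h called none either, beside 0.172% of all probe sets called lower and 0.474% higher. Unadjusted p-values under 0.05 were found for 4 genes at 2 h. There NdhL stood at 0.85 and was called at 1.00 without the bak1 0 h array of replicate 1. The root hair expansins EXPA7 and EXPA18, the measured root markers, fell at 10 h of Pep2 in bak1 by 1.40 and 1.33, and their part in the values of the set was not tested. In the other 11 responses neither was called.

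At 10 h of elf18, ein2 had 6 genes called lower and none higher, beside 12.8% of all probe sets lower and 12.5% higher, with a median change of -0.72 (range -2.79 to -0.07). With no minimum fold required 11 genes were lower and none higher, beside 36.1% and 27.8% of all probe sets. LHCB4.2 had 12.20, 10.92 and 11.17 in ein2 at 10 h of elf18, against 13.47, 13.77 and 13.67 at 0 h, a change of -2.21 (limma adjusted p = 4.7e-11). CaS had 10.30, 8.94 and 9.19 at 10 h, against 12.06, 12.39 and 12.36 at 0 h, a change of -2.79 (adjusted p = 3.1e-14). In both genes replicate 1 was the highest of the treated arrays. NdhL had 7.45, 7.44 and 7.54 at 10 h, against 9.19, 9.26 and 9.40 at 0 h, a change of -1.80 (adjusted p = 8.3e-13). NdhN fell by 1.77, NdhS by 1.25 and PSB27 by 1.00. PSB27 was at the fold minimum and lost its call, at -0.96 to -0.95, without any of 3 single arrays (ein2 0 h replicate 3, ein2 elf18 10 h replicates 2 and 3).

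The interaction of ein2 with WT at 10 h of elf18 was called higher in ein2 for 3 genes and lower for none, beside 2.53% of all probe sets higher and 1.99% lower. Without the 2-fold minimum 9 differences were higher and none lower, beside 5.06% and 6.78% of all probe sets. The interaction was 2.35 for LHCB4.2 (SE 0.316, limma adjusted p = 2.7e-06), 1.04 for NdhL (SE 0.221, adjusted p = 0.0016) and 1.04 for CaS (SE 0.304, adjusted p = 0.022). The untreated ein2 arrays were lower than the untreated WT arrays by part of these sizes: the 0 h difference was -0.50 for LHCB4.2 (limma adjusted p = 0.13), -0.47 for CaS (adjusted p = 0.14) and -0.30 for NdhL (adjusted p = 0.21), none of them called. At 10 h itself LHCB4.2 averaged 11.43 ± 0.68 in ein2 and 9.58 ± 0.52 in WT, CaS 9.47 ± 0.72 in ein2 and 8.91 ± 0.20 in WT, and NdhL 7.48 ± 0.05 in ein2 and 6.73 ± 0.27 in WT (SD, n = 3 each). The calls of NdhL and CaS rested on single arrays. Only LHCB4.2 was called without the WT 0 h array of replicate 2, without the WT elf18 10 h array of replicate 2, or without the ein2 0 h array of replicate 1. CaS alone lost its call without the ein2 elf18 10 h array of replicate 1, at 0.63, and also in a fit of the compared groups only (adjusted p = 0.12), and NdhL alone without the WT 0 h array of replicate 1, just under 2-fold. PSAN, at 0.90, was called at 1.05 without the WT elf18 10 h array of replicate 3 or the ein2 0 h array of replicate 3. For NdhN the difference was -0.05 (adjusted p = 0.94) and for NdhS -0.18 (adjusted p = 0.49).

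At 2 h of elf18, ein2 had 3 genes called lower and none higher, all of them subunits of the NADH dehydrogenase-like complex, beside 7.11% of all probe sets lower and 8.83% higher. NdhS fell by 1.35, NdhN by 1.09 and NdhL by 1.04, and NdhL lost its call at -0.98 without the ein2 0 h array of replicate 3 or at -0.97 without the ein2 elf18 2 h array of replicate 1. The interaction with WT at 2 h of elf18 called no gene, beside 0.68% of all probe sets called lower and 0.693% higher. No gene of the set had an unadjusted p-value under 0.05 in it. At 2 h of Pep2, ein2 had no called gene, beside 10.1% of all probe sets called lower and 10.6% higher. An unadjusted p-value under 0.05 was found for 6 genes. The interaction with WT there called NdhL alone, at 1.01 (adjusted p = 0.0049), beside 1.36% of all probe sets called higher and 1.26% lower. That call was lost, at 0.92 to 0.98, without any of 6 single arrays (WT 0 h replicates 1 and 2, WT Pep2 2 h replicates 1 and 2, ein2 0 h replicate 1, ein2 Pep2 2 h replicate 2). PSAN, at 0.96, was called without any of 5 single arrays, at 1.00 to 1.11 (WT 0 h replicate 1, WT Pep2 2 h replicate 3, ein2 0 h replicates 2 and 3, ein2 Pep2 2 h replicate 1), and NdhN, at 0.81, was called at 1.03 without the WT Pep2 2 h array of replicate 3.

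**Figure D4:**
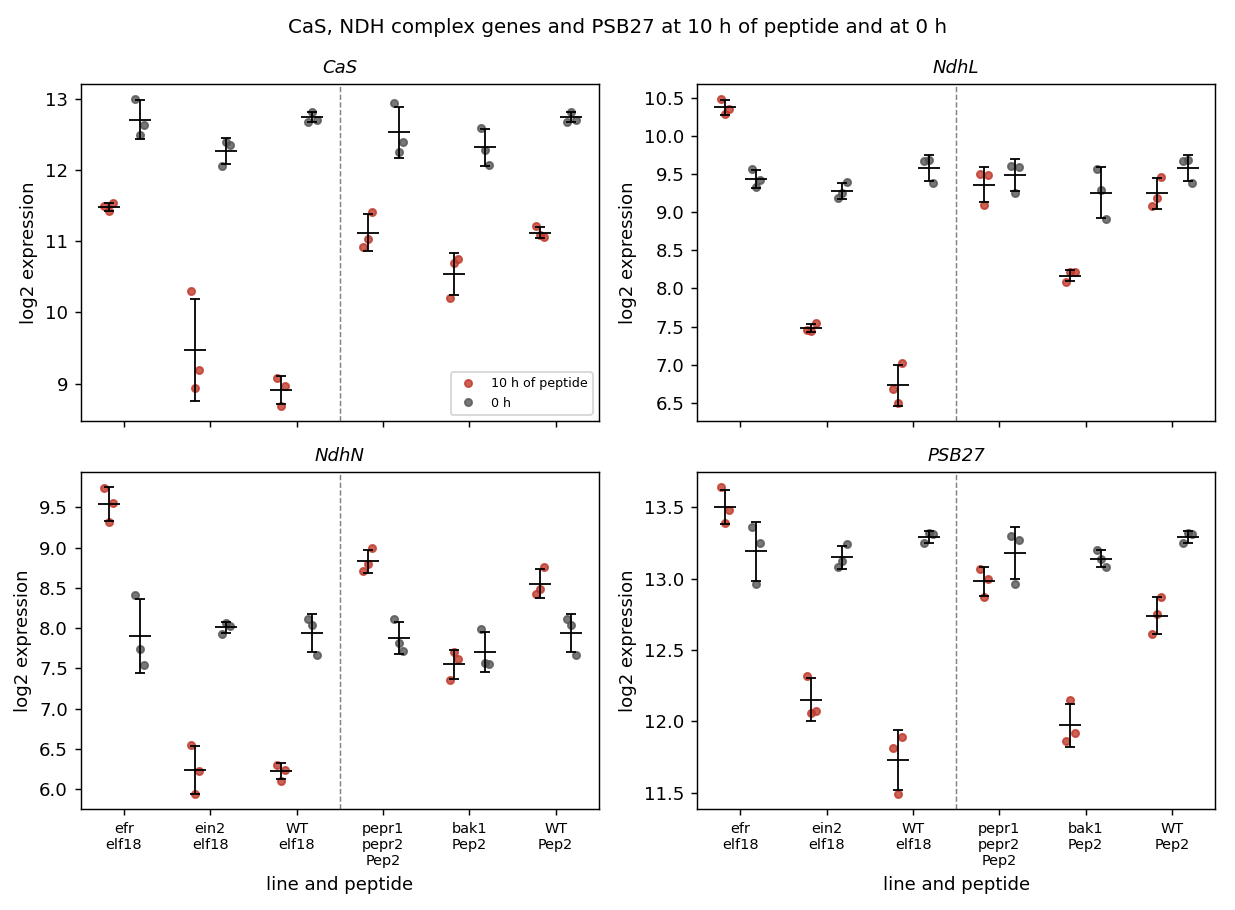
Log2 expression of CaS, NdhL, NdhN and PSB27, each panel with its own axis, at 10 h of peptide (red) and at 0 h (grey) for each line; points are arrays, and bars give the mean and SD of 3 arrays, with the WT 0 h arrays drawn under both peptides. At 10 h NdhL and NdhN have their lowest means in WT and ein2 given elf18 and their highest in efr given elf18, where the 3 arrays of NdhL lie between 10.29 and 10.49.

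The peptides were set against each other at 10 h in WT, at the same dose. With elf18 4 genes were called lower than with Pep2 and none higher, beside 7.08% of all probe sets lower and 7.98% higher, and without the fold minimum 11 were lower and none higher, beside 25.4% and 24.1% of all probe sets. The difference was -2.52 for NdhL (limma adjusted p = 3.9e-16), -2.34 for NdhN (adjusted p = 1.5e-11), -2.21 for CaS (adjusted p = 4.9e-11) and -1.01 for PSB27 (adjusted p = 9.8e-09). NdhL averaged 6.73 ± 0.27 with elf18 and 9.25 ± 0.20 with Pep2, and CaS averaged 8.91 ± 0.20 with elf18 and 11.12 ± 0.08 with Pep2 (SD, n = 3 each). PSB27 lost its call at -0.89 without the WT elf18 10 h array of replicate 2 and at -0.95 without the WT Pep2 10 h array of replicate 3. LHCB4.2, which fell with both peptides, differed by -0.88 (adjusted p = 0.0012). It was called at -1.07 without the WT elf18 10 h array of replicate 3 or the WT Pep2 10 h array of replicate 2.

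Other photosynthesis genes, taken from lists of names, gave context for the set in the response of WT to 10 h of elf18 and in its efr interaction. Among all probe sets 13.5% were called lower and 13.4% higher in that response, 7.12% lower and 8.09% higher in the efr response, and 14.7% higher and 12.6% lower in the interaction. The 3 measured Calvin cycle enzymes were all called lower in WT: PRK fell by 1.68, SBPASE by 1.40 and RCA, the Rubisco activase, by 1.10. None of these was called in efr, and the interaction was called higher in efr for PRK and SBPASE, at 1.90 each. Of 10 measured genes of photosystem assembly and regulation 5 were called lower and 1 higher in WT, beside the 13.5% and 13.4% of all probe sets, and the interaction was called higher in efr for 7, beside 14.7%. CRR21, an RNA editing factor of a plastid NADH dehydrogenase-like subunit, fell by 1.57 in WT and had an interaction of 2.65. PAM68 and LPA2, assembly factors of photosystem II, fell by 1.49 and 1.47. PIFI, a protein tied to the activity of the NADH dehydrogenase-like complex, rose by 1.55 in WT with an interaction of 0.06.

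Of 8 measured genes of chlorophyll synthesis 2 were called lower and 1 higher in WT, beside 13.5% and 13.4% of all probe sets. CHLM, the magnesium-protoporphyrin methyltransferase, fell by 2.43, and CHLI2, a subunit of magnesium chelatase, by 1.22. HEMA2, a glutamyl-tRNA reductase gene known to be active outside photosynthetic tissue too, rose by 2.08, and GSA1 changed by 0.92. The interaction was called higher in efr for 4 of the 8 and lower for HEMA2 (-1.79), beside 14.7% of all probe sets higher and 12.6% lower. Outside these groups NOL, a chlorophyll b reductase, fell by 1.87, and HPR, the hydroxypyruvate reductase of photorespiration, fell by 2.82. HYH, a relative of the light-signalling factor HY5, fell by 1.30 in WT at 10 h of elf18, by 1.80 in efr at 10 h of elf18 and by 2.26 in WT at 10 h of Pep2. The other measured genes of the lists, LIL3:1 (-0.88), ATPC1 (-0.47) and ATPC2 (0.47), were not called in WT. In efr LIL3:1 averaged 12.78 at 10 h of elf18 and 11.95 at 0 h, and ATPC2 6.67 and 6.93. For NOL the efr means were 8.55 at 10 h of elf18 and 8.81 at 0 h, and for HPR 12.67 and 13.18. No name of the lists for photoprotection and for dark or starvation markers was matched to a probe set.

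The plastid genome encodes other subunits of the same complexes. Of 36 such genes with a probe set 34 passed the filter. In efr at 10 h of elf18 14 of the 34 were called lower and none higher (median -0.88), beside 7.12% of all probe sets lower, and in WT 7 were called lower and none higher (median -0.68), beside 13.5% of all probe sets lower. The interaction was called higher in efr for 1 of the 34, psaJ at 1.06 (adjusted p = 0.017), and lower for none, beside 14.7% and 12.6% of all probe sets, with a median of -0.25. The photosystem I gene psaC fell by 3.63 in efr (6.36 at 10 h and 9.99 at 0 h) and by 2.41 in WT (6.20 at 10 h and 8.61 at 0 h), and its interaction of -1.22 was not called (adjusted p = 0.12). The medians of the 34 genes were 12.14, 12.22 and 11.77 on the untreated efr arrays, against 11.82, 11.20 and 11.74 on the untreated WT arrays. For psaC untreated efr was 1.37 above untreated WT, which was not called. The SE of a change was 0.267 for psaJ, 0.471 for psaC, 0.487 for psbT and 0.528 for ndhE. Each is larger than any SE of a WT change given above for the set. In WT at 10 h of elf18 ndhE was called lower although its groups overlapped.

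Of the clock genes listed, COR27 and GI were measured. COR27, a cold-regulated gene under clock control, was at 2.08 to 3.14 on all arrays of 0 h and 2 h and at 8.22 to 9.47 on all arrays of 10 h, in every genotype and with either peptide. GI did not follow the same course. Its changes at 10 h of elf18 were -0.38 in efr, -0.07 in ein2 and -1.07 in WT, and at 10 h of Pep2 -0.03 in pepr1 pepr2, -0.31 in bak1 and -0.61 in WT. Of these only the change in WT with elf18 was called, and of the 2 h responses only that of ein2 to Pep2, at -1.09. COR27 therefore moved with the time of sampling in the same 10 h groups in which LHCB4.2 and CaS were low, and its part in their changes was not tested. Elapsed time and peptide cannot be told apart within 1 genotype.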

How the data were processed

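Total RNA of 51 samples was measured on Affymetrix ATH1 arrays. The deposited values are on a log2 scale and were normalised by the authors with GCRMA, per the submitters' processing notes. Its version is not given in the sources used here. GCRMA pulls dim probe sets to a floor: 27.4% of the values lay within 0.1 of the lowest, 2.08. For arrays the number of replicates limits the precision, and no depth applies.

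Groups came from the sample labels. Of 22810 probe sets 64 controls were left out, and 14568 with a value of at least 5 on at least 3 arrays were tested with limma 3.58.1 in R 4.3.3: 1 mean per group over all 51 arrays (34 residual degrees of freedom, 3.84 prior), Benjamini-Hochberg within each of 31 contrasts. The adjusted p-values and intervals come from that fit. Several comparisons share the WT 0 h arrays. Genes came from the platform annotation, with loci from RefSeq: 13513 probe sets were paired with 1 gene and 503 with several, which were not named. Members and lists were chosen with earlier results of these data known. The 3 markers, LHCB4.2, CaS and NdhL, had the largest falls of the set in WT at 10 h of elf18. Array values are given for LHCB4.2, CaS, NdhL and for the largest called changes, and up to 4 genes are named per list, those with the largest change in WT at 10 h of elf18. The 12 lists held 241 names, 31 of which were measured. Sequences and coordinates were not used here.

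Same-numbered replicates were checked for pairing: residuals correlated at 0.078 on average for the same number and at -0.039 for different numbers, and every pair was over 0.1 in 3 of 23 contrasts, so the main fit has no block. A simulation set every group to the WT 0 h means with independent noise. It changed 100 probe sets per size, only in WT at 10 h of elf18. There the WT response recovered 94% of changes of 1.5 and 100% of changes of 3, with 0 false calls. The efr interaction recovered 88% and 97%, with 7. Far more probe sets changed in the real data, so these shares do not give the error of the real tests. Alternatives were a stricter filter or none, no fold minimum, other scalings, a spread that depends on intensity and a fit on the compared groups only. Others were a replicate block and each array left out in turn. Using every probe set of a gene was listed too, and it could change nothing here, as each gene had 1.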

Additional observations from a re-analysis of the deposited data

Results flagged for a closer look

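Each result here is a response that differed between a mutant and WT in a direct test of that difference (limma's interaction, adjusted p under 0.05 and at least 2-fold), and each value is the mutant response minus the WT response on the log2 scale. For efr at 10 h of elf18 this held for 8 of the 13 genes, beside 14.7% of all probe sets called higher and 12.6% lower. They were NdhL (3.78), NdhN (3.37), CaS (2.61), PSAN (1.90), PSB27 (1.88), LHCB4.2 (1.58), LHCB4.3 (1.24) and PSBY (1.09). For ein2 at 10 h of elf18 it held for 3 genes, LHCB4.2 (2.35), NdhL (1.04) and CaS (1.04), beside 2.53% higher and 1.99% lower. For ein2 at 2 h of Pep2 it held for 1 gene, NdhL (1.01), beside 1.36% higher and 1.26% lower. For pepr1 pepr2 at 2 h of Pep2 it held for 3 genes, NdhN (1.62), NdhL (1.28) and CaS (1.11), beside 11.3% higher and 11.8% lower. NdhL and CaS appear in the efr, ein2 and pepr1 pepr2 tests. These tests share the WT 0 h arrays, and the efr and ein2 tests also share the WT arrays at 10 h of elf18. The calls of NdhL and CaS in ein2, of CaS in pepr1 pepr2 and of PSBY in efr were lost without certain single arrays.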

How the results depend on the processing

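Over the 15 comparisons recomputed, 240 of 255 alternative counts of called genes stayed within 1.5 times the reported count. For each comparison 1 of these counts, with every probe set of a gene, was the same by construction, as each gene had 1. Over all 31 comparisons no alternative value of a called change had the opposite sign (0 of 1026). The filters, the fit on the compared groups only and the replicate block leave a difference of group means unchanged, so a sign could not turn there. Dropping the 2-fold minimum raised the count to 12 in the WT response to 10 h of Pep2, to 11 in the ein2 response to 10 h of elf18 and in the comparison of the peptides, and to 10 in the efr response, the 10 h responses of pepr1 pepr2 and bak1 and the pepr1 pepr2 interaction at 2 h. It raised the count to 9 in the WT responses at 2 h of elf18 and of Pep2 and in the ein2 interaction at 10 h, to 4 in the bak1 interaction at 10 h, and to 1 in the pepr1 pepr2 interaction at 10 h. In the WT response to 10 h of elf18 and in the efr interaction it raised the count from 8 to 12. These rises follow from the construction, since the adjusted p-values are the same. The counts hold both directions, and the shares of all probe sets at that rule stand with each comparison above. With single arrays left out the ein2 interaction at 10 h of elf18 ranged from 1 to 4 genes, the efr interaction from 7 to 8 and the WT response to 10 h of elf18 from 7 to 8. A replicate block changed no count, so that the WT response to 10 h of elf18 kept 8 calls and the efr interaction 8. For LHCB4.2, CaS and NdhL alone, 12 of 720 alternative values in these 15 comparisons lost a call and 8 gained one. Over all 13 genes and all 31 comparisons, leaving out single arrays lost a call 41 times and gained one 21 times, among 3042 values. Quantile normalisation moved a change of a gene of the set by at most 0.131 and median centring by at most 0.075. With 3 arrays per group and no untreated seedlings at 2 h or 10 h, time and peptide cannot be told apart within 1 genotype.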

Other observations

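Called decreases between 2 h and 10 h were found in mutants as well as in WT. In bak1 with Pep2 4 genes were called lower at 10 h than at 2 h and none higher, beside 11.2% of all probe sets lower and 9.26% higher. LHCB4.2 fell by 3.80, PSAN by 1.18, CaS by 1.16 and PSB27 by 1.05. CaS lost its call at -0.99 without the bak1 Pep2 10 h array of replicate 1, and PSB27, just under 2-fold, without the same array or at -0.98 without the bak1 Pep2 2 h array of replicate 3. In pepr1 pepr2 with Pep2 3 genes were called lower and none higher, beside 5.14% of all probe sets lower and 4.52% higher: LHCB4.2 fell by 3.46, CaS by 1.34 and NdhS by 1.21. In ein2 with elf18 2 genes were called lower and none higher, beside 4.87% lower and 5.21% higher, with LHCB4.2 falling by 1.79 and CaS by 1.98. LHCB4.2 and CaS were thus called in all 3 mutants. In WT the change of LHCB4.2 over that interval was -3.9 with elf18 and -3.16 with Pep2, both called. CaS changed in WT by -2.55 with elf18, which was called, and by -0.44 with Pep2, which was not.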
